A study of Mus musculus with 3 samples.

Results

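Transcripts of 89 genes of the mitochondrial respiratory chain were described in sorted mouse pancreatic cells on 3 arrays. The genes were chosen by name alone from the 19938 genes with a probe set that the platform annotation ties to a single gene. They were all symbols that start with Nduf, Uqcr or Atp5, together with the Cox4 to Cox8 genes and Sdha to Sdhd. No expression value entered this choice. For the 17 of the 89 with several probe sets, the one brightest on average was taken.

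The respiratory chain sits in the inner mitochondrial membrane. Complexes I and II take electrons from NADH and succinate, complex III passes them to cytochrome c, complex IV hands them to oxygen, and complex V, the ATP synthase, uses the proton gradient that I, III and IV build to make ATP. In pancreatic beta cells this ATP closes potassium channels and so couples glucose metabolism to insulin release, and in ductal cells it fuels ion transport. A few catalytic subunits are encoded in mitochondrial DNA; no such gene had a single-gene probe set in the annotation used, and they were not analysed here.

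Each group was 1 array of pooled, flow-sorted cells from C57BL/6 mice older than 6 weeks, with 30000 cells and 18 ng of amplified RNA per array. The first group was beta cells of 3 untreated mice of genotype Fbw7 +/+; MIP-GFP, in which a mouse insulin promoter drives the green reporter. The other groups were ductal cells of 6 mice each, all with the alleles Ck19-CreERT and R26-LSL-YFP, and with Fbw7 +/+ in the wild-type (WT) and Fbw7 F/F in the knockout (KO) group. These mice were given tamoxifen on 5 days in a row and sampled 7 days after the last dose. Fbw7, encoded by Fbxw7, is the substrate-binding subunit of a ubiquitin ligase. In the ductal mice, Cre driven by the cytokeratin 19 promoter turned on the yellow reporter and, in the KO mice, acted on the floxed Fbw7 alleles, so both the sort and the deletion depend on where that promoter is active. Beta and ductal cells differed in cell type, reporter and tamoxifen together, and these cannot be told apart.

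A level is the deposited log2 intensity of a probe set, and a difference is that of 2 levels of the same gene. Since a group was a single array, the spread is not known: no difference has a replicate check, no test was possible and the number of arrays limits the precision. A gene entered a comparison where its higher level exceeded a floor, set at that array's median over probe sets with a single gene (5.30 in beta, 5.23 in WT ductal and 5.24 in KO ductal cells). In pools of cells, fewer cells of a type and less RNA per cell cannot be told apart.

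The arrays were checked against their labels first. Fbxw7 read 7.00 in beta, 6.32 in WT ductal and 5.71 in KO ductal cells, so it was lowest in the KO array and still above the floor there. The insulin gene Ins2 read 11.04 in beta, 5.31 in WT and 5.87 in KO cells. The 9 beta markers averaged 6.82, 4.62 and 4.99 in the same order. Of these, 8 were higher in beta than in WT cells and 1, Mafa, was identical in all 3 arrays. Against KO cells 7 were higher and 1, Slc2a2, was lower in beta cells (6.05 against 6.90). Pdx1 and G6pc2 were below the floor in all 3 arrays. The duct markers averaged 6.36 in beta, 7.15 in WT and 8.41 in KO cells, and all 10 measured read higher in KO than in WT cells (median difference 1.01). Compared with WT cells, 5 of the 10 were lower in beta cells, 3 identical and 2 higher. The 2 were Cdh1 (6.92 in beta and 6.54 in WT cells) and Muc1 (6.74 and 6.55). All 10 were lower in beta than in KO cells. Krt19, whose promoter drives the Cre, read 6.71, 9.13 and 9.53, while the epithelial gene Epcam read 5.42 in both beta and WT ductal cells and 7.22 in KO cells, and the chloride channel gene Cftr was below the floor in all 3 arrays. Other markers moved as well. The 6 mesothelial markers, among them Msln and Upk3b, averaged 10.3 in WT and 10.2 in KO ductal cells against 4.95 in beta cells, and all 6 were above the floor in both ductal arrays. The 8 measured acinar markers, genes of digestive enzyme-making cells, averaged 9.31 in beta, 7.87 in WT and 8.98 in KO cells. The 6 mesenchymal markers averaged 6.58, 9.17 and 8.15 in the same order, 6 of 6 lower in KO than in WT cells. Leukocyte markers (6.30, 4.59 and 4.54) and endothelial markers (6.38, 4.91 and 5.07) averaged higher in the beta array. Of the 6 leukocyte markers, 5 were higher in beta than in either ductal array. The other, Cd74, was lower (7.53 in beta, 8.53 in WT and 7.77 in KO cells), and Itgam was below the floor in all 3 arrays. All 5 endothelial markers were higher in beta than in WT cells, and 4 than in KO cells, where Plvap was identical. The ductal arrays thus held mesothelial genes at high levels, and the part of these other cell types in the differences below was not tested.

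Of the 89 respiratory chain genes, 75 were above the floor in beta, 83 in WT ductal and 81 in KO ductal cells. Complex V was above it throughout, with 17 of 17 members, and the 5 genes that never passed were Cox7a1, Cox7b2, Cox8b, Cox8c and Ndufaf6. The median level of the 89 was 6.68 in beta, 8.24 in WT ductal and 8.14 in KO ductal cells. Their median percentile rank among all genes of the array was 90.7, 94.1 and 94.8; ranks mix probes of different brightness. The arrays also differed in overall spread, with an SD over all probe sets of 1.57 in beta, 2.02 in WT and 1.97 in KO ductal cells.

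**Figure D1:**
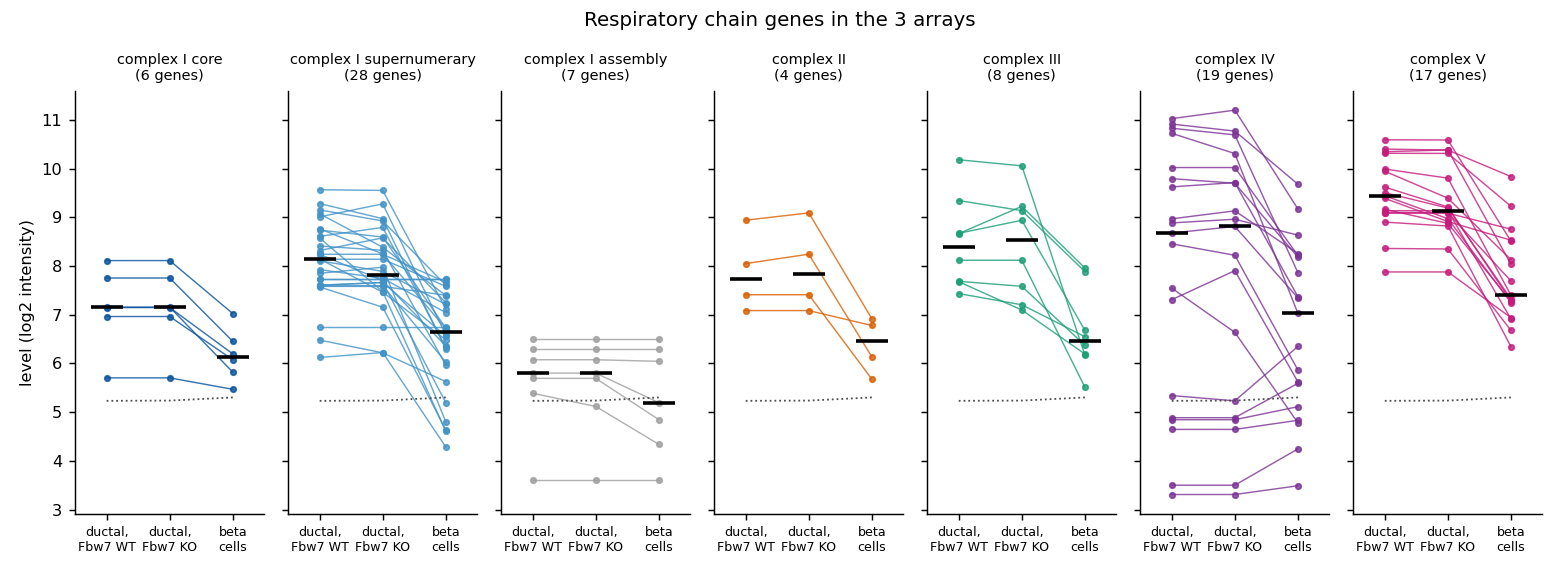
Level (log2 intensity, y axis) of each respiratory chain gene in the WT ductal, KO ductal and beta arrays (x axis), 1 line per gene and 1 panel per complex; black bars are panel medians and the dotted line is the floor. Lines run nearly flat between the ductal arrays and mostly downward to the beta array, where the median over the 89 genes was 6.68 against 8.24 in WT ductal cells; levels of different genes are not to be compared.

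The respiratory chain genes stayed close together between the KO and WT ductal arrays. Of the 83 that entered, 39 were lower in KO cells, 26 held exactly the same value and 18 were higher, with a median difference of 0.00. Only Ndufs5 was at least 2-fold lower, or 1.20% of the members, where 1.81% of the 10035 genes compared and 2.97% of genes in the members' level range were. No member was at least 2-fold higher, against 1.43% of all genes and 1.24% of genes in that range. The level range used here holds the 2490 genes whose mean level over the 3 arrays lay between 6.83 and 8.63, the middle of the members' own distribution. Among these 2490 genes 54.5% were lower, 29.7% identical and 15.7% higher in KO cells, beside 47.0%, 31.3% and 21.7% of the members.

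The sign of these small differences depended on the scaling: the same 83 genes were 32 lower and 50 higher after quantile normalization of the arrays and 33 lower and 50 higher after removal of a loess trend on level, with medians of 0.06 and 0.02. Of the members with a difference as deposited, 9 and 6 turned sign. Exact ties were a property of the deposited values: 16792 of the 35556 probe sets (47.2%) were identical in the ductal arrays, and so were 32 of the 89 members and 59.1% of all genes. Without the ties the median over the other 57 members was -0.13, beside -0.13 for all genes and -0.21 for genes in the members' level range.

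**Figure D2:**
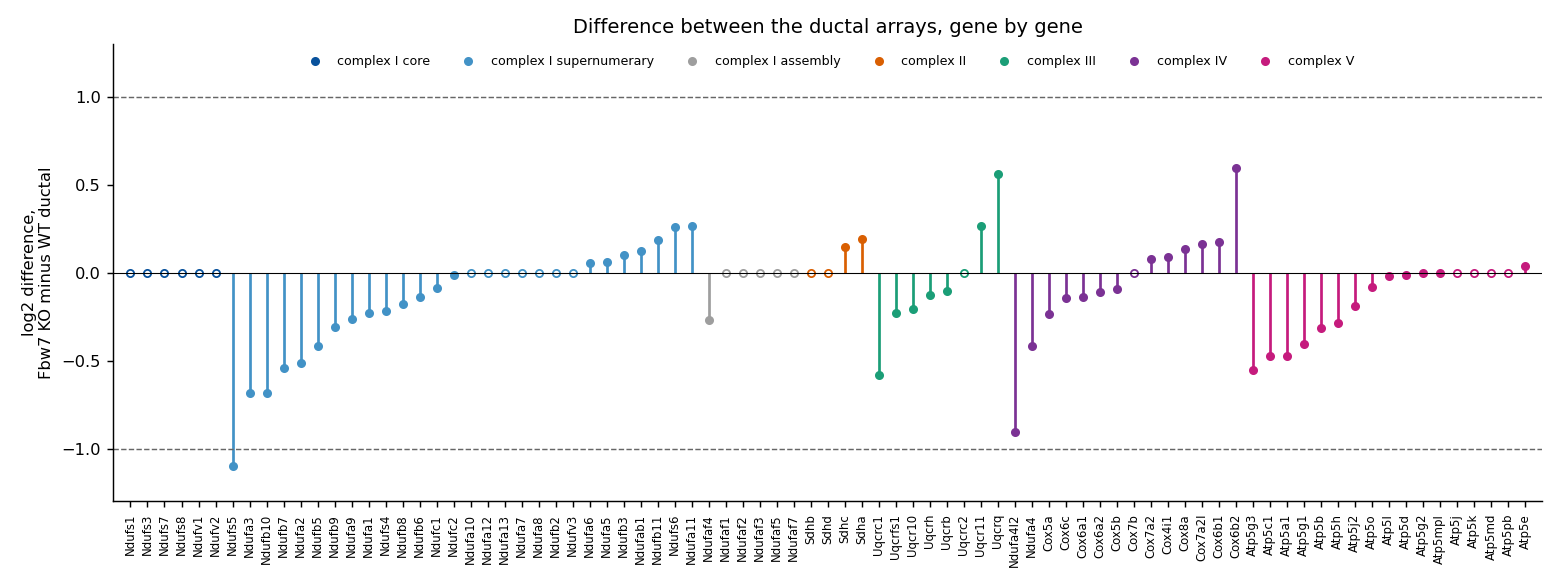
Difference in level between KO and WT ductal cells (log2, y axis) for the 83 genes that entered the comparison, ordered within each complex (colours); hollow points are exact ties and dashed lines mark 2-fold. All genes but Ndufs5 lie inside the dashed lines, and complex I core holds only ties.

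The comparison of beta with ductal cells gave far larger differences. Of 84 members that entered, 77 were lower in beta than in WT ductal cells, 5 were identical and 2, both of complex IV, were higher. The median difference was -1.55. The share lower was 91.7%, beside 53.8% of all genes and 84.8% of genes in the members' level range. At least 2-fold lower were 56 (66.7%), where 25.8% of all 11139 genes and 57.3% of genes in the members' level range were. At least 2-fold higher was 1 member, Cox6a2, against 6.37% of all genes and 2.13% of genes in the range. Genes of that level range had a median of -1.25 and all genes one of -0.11. In percentile ranks the median member moved by -1.87 points and the median gene of the level range by -1.81 points.

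Against the KO ductal array, which shares the beta array with the comparison above, 53 of 83 members (63.9%) were at least 2-fold lower in beta cells, and the median difference was -1.33. Of all 11095 genes 23% were, and of genes in the level range 52.6%. Cox6a2 was again the member at least 2-fold higher, against 5.13% of all genes and 2.09% of genes in the range.

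Here too the scaling mattered. The median of beta minus WT ductal cells over the members was -0.72 after quantile normalization and -0.49 after the loess trend was removed, while that of all genes moved from -0.11 to 0.09 and 0.02. Under quantile normalization 35 members (41.7%) were at least 2-fold lower and 3 higher, where 17.9% of all genes were lower and 10.6% higher. With the loess trend removed 21 (25%) were lower and 6 higher, beside 16% and 8.1% of all genes. As deposited these counts were 56 and 1. Against KO ductal cells 31 members were lower and 1 higher after quantile normalization, where 16.8% and 9.4% of all genes were, and 27 and 3 with the trend removed, where 15.3% and 6.44% were. In the level range, 36% of genes were lower than in WT cells after quantile normalization and 29.6% with the trend removed. Of the members with a difference as deposited, 15 and 21 turned sign. A member was therefore also asked to be at least 2-fold lower as deposited, after quantile normalization, after centring and after removal of the trend. This left 20 of 84 members (23.8%) against WT ductal cells, where 15% of all genes and 29.6% of genes in the level range passed, and 26 of 83 (31.3%) against KO ductal cells, where 14.3% and 28.4% passed. For KO against WT ductal cells 0 members passed it, against 0.897% of all genes and 1.24% of genes in the range. These counts take levels as measured, also below the floor. Among the genes they hold, Ndufb3 was below the floor in beta cells and at least 1.76-fold lower than in WT and 1.89-fold lower than in KO cells, and Ndufaf4 at least 1.06-fold lower than in WT cells, bounds that do not reach 2-fold. The members' share lay below that of their level range in one comparison of beta cells and above it in the other. Passing against both ductal arrays were 19 genes, with levels below the floor taken as measured. They were Ndufa6, Ndufa11, Ndufab1, Ndufb3, Ndufb5, Ndufb9, Ndufb11, Ndufc1 and Ndufs5 of complex I and Sdhd of complex II. The others were Uqcrh and Uqcrc2 of complex III, Ndufa4, Ndufa4l2, Cox5a, Cox6a1 and Cox6b2 of complex IV, and Atp5o and Atp5j2 of complex V. Below the floor in beta cells were Ndufa4l2, Ndufa6, Ndufab1, Ndufb3, Ndufb5 and Ndufs5, for which bounds were taken as deposited only. The list rests on a single probe set per gene. As deposited, the other probe set of Ndufb11 differed by -0.46 from WT and -0.43 from KO cells, and that of Ndufc1 by -1.07 and -0.79. Those of Ndufa11 and Ndufab1 differed by -2.48 and -2.95 from WT cells. A probe set that Ndufs5 shares with a pseudogene read 7.86 on all 3 arrays.

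**Figure D3:**
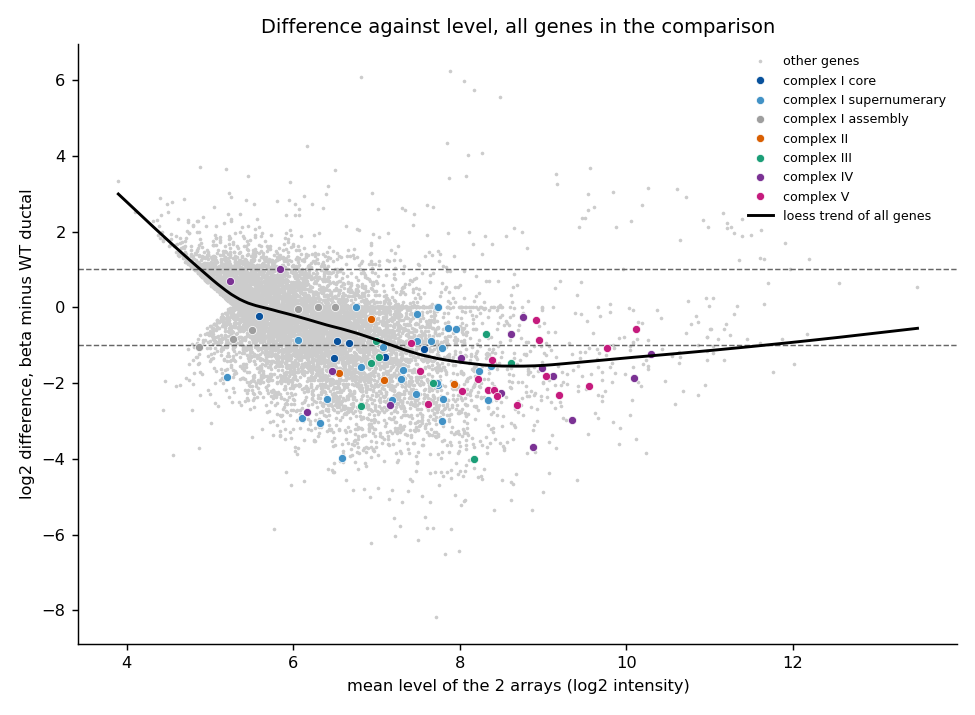
Difference between beta and WT ductal cells (log2, y axis) against the mean level in both arrays (log2 intensity, x axis) for the 11139 genes compared; grey points are other genes, coloured points the 84 respiratory chain genes by complex, the black line the loess trend of all genes and dashed lines 2-fold. The members lie on both sides of a trend that is itself below 0 at their levels, with a median of -0.49 from it.

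**Figure D4:**
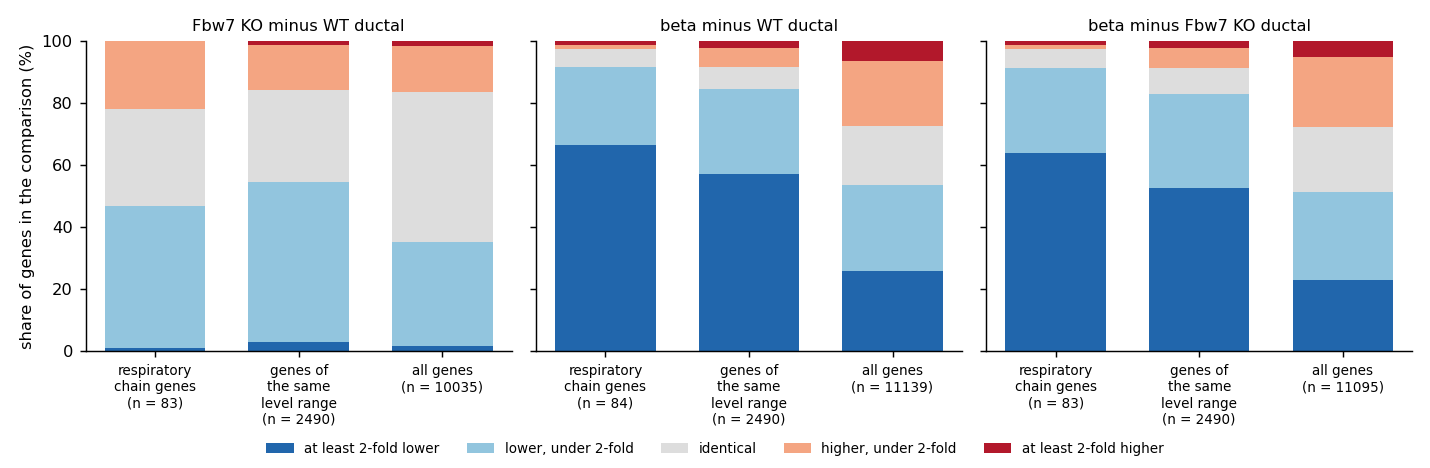
Share of genes (%, y axis) that were at least 2-fold lower, lower, identical, higher or at least 2-fold higher in each of the 3 comparisons (panels), for the respiratory chain genes, the 2490 genes of their level range and all genes. The bars of the members resemble those of their level range more than those of all genes: at least 2-fold lower in beta than in WT ductal cells were 66.7%, 57.3% and 25.8%.

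Promoters are shown for the members on which these comparisons turn and for some that share a motif. RefSeq (GRCm38.p6) gave a promoter window for 73 of the 89 genes, 78 windows in all, each from 250 bases before to 50 after a gene's start. The windows were searched on both strands for 5 motifs, none of which contains another. The letters CGCATGCG, the core of the site of NRF1, a factor of nuclear genes for mitochondria, were in 11 of the 78 windows (14.1%), beside 2.70% of the 19116 windows of genes on the array and 1.87% of all 32851. The letters CCGGAAG of GABPA, a further factor of such genes, were in 18 windows (23.1%, beside 12.1% and 8.86%). The letters AAGATGGC of YY1 were in 10 windows (12.8%, beside 3.19% and 2.75%). The SP1 letters GGGCGG were in 34 windows (43.6%, beside 49.3% and 35.7%). A TATA box, searched as the letters TATAAA, was in 9 windows (11.5%, beside 11.5% and 13.6%). A match is a stretch of letters and not a measured binding site.

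The lines below give the 150 bases before the start, in the gene's own direction, with matches to the NRF1, GABPA and YY1 letters in capitals. The first 4 hold the NRF1 letters and encode the coupling factor, c and e subunits of ATP synthase and a membrane subunit of complex I; that of Atp5j also holds the YY1 and GABPA letters. Uqcrh, Ndufs5 and Ndufa4 are shown because they had the largest differences between beta and WT ductal cells as deposited.
Atp5j: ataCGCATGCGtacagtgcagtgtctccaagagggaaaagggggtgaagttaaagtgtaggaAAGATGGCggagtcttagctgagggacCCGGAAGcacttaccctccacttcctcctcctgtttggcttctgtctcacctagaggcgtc
Atp5g2: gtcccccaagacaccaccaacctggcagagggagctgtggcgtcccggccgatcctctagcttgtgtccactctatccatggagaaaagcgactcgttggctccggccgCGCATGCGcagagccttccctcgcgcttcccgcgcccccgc
Atp5k: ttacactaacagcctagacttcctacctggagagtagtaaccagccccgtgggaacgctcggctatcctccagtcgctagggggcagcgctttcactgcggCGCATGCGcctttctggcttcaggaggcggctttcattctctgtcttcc
Ndufa11: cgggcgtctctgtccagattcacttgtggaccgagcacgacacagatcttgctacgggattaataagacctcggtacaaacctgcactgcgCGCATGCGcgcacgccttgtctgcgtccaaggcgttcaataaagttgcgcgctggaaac
Uqcrh: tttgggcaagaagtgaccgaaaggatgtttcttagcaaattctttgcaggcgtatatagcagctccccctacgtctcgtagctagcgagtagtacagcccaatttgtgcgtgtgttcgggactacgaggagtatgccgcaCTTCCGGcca
Ndufs5: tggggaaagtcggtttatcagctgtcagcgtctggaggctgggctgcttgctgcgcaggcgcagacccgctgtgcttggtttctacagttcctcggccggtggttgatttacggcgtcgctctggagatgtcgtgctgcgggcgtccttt
Ndufa4: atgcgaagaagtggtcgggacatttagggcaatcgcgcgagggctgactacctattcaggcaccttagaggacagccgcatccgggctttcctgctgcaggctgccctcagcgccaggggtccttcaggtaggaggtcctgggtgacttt
They lie at chr16:84834977-84835126 (minus strand, Atp5j), chr15:102671048-102671197 (minus, Atp5g2), chr5:108434400-108434549 (minus, Atp5k), chr17:56717612-56717761 (plus, Ndufa11), chr4:116075071-116075220 (minus, Uqcrh), chr4:123718187-123718336 (minus, Ndufs5) and chr6:11907451-11907600 (minus, Ndufa4). The first base of the NRF1 letters stands 147, 41, 49 and 59 bases before the start of Atp5j, Atp5g2, Atp5k and Ndufa11. In Atp5j the YY1 letters begin 88 and the GABPA letters 61 bases before the start, and in Uqcrh the GABPA letters, on the opposite strand, begin 10 bases before it.

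The 33 compared genes with NRF1, GABPA or YY1 letters had a median difference between beta and WT ductal cells of -1.40, and the 37 with a window and none of them one of -1.61. By motif, genes with the YY1 letters had a median of -1.004 and 5 of 10 at least 2-fold lower, beside -1.59 and 41 of 60 without them. Genes with the GABPA letters had a median of -1.79 and 14 of 18 lower, beside -1.51 and 32 of 52. Genes with the NRF1 letters had a median of -1.48 and 7 of 11 lower, beside -1.57 and 39 of 59. Of all genes 25.8% were at least 2-fold lower in this comparison, and of genes in the members' level range 57.3%. These values are as deposited, and other scalings were not read by motif. Whether genes with and without a motif differ was not tested. Among the genes printed above, Ndufs5, with none of the 3 in the bases shown, was at least 9.64-fold lower in beta than in WT cells. Uqcrh, with GABPA letters, differed by -4.00, and Atp5j, with all 3, by -2.22. Atp5k, with the NRF1 letters in the bases shown and GABPA letters elsewhere in its window, differed by -0.33.

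Complex I is the largest complex, with a core that carries the flavin and the iron-sulfur clusters. Each of the 6 core genes described here held the same value in both ductal arrays. Ndufv1, which binds NADH and the flavin, read 6.20 in beta and 7.15 in both ductal arrays. Ndufv2, its iron-sulfur partner, read 6.45 and 7.75, and Ndufs8, an iron-sulfur subunit near the quinone site, read 5.82 and 7.16. Ndufs3 read 7.02 and 8.11, Ndufs7 6.08 and 6.96, and Ndufs1, which carries several iron-sulfur clusters, 5.47 and 5.71. All 6 were thus lower in beta cells, by -1.02 at the median and -1.33 at most (Ndufs8). Of all genes 53.8% were lower than in WT cells, and of genes in the members' level range 84.8%. That range starts at a mean level of 6.83, above the level of Ndufs1 in every array. Ndufs3 turned to 0.18 against WT cells with the loess trend removed, and 0 of the 6 were at least 2-fold lower under all 4 scalings.

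The 28 supernumerary subunits, which surround the core, spread more widely. Ndufs5, which lies on the intermembrane space side, read 4.61 in beta, 8.57 in WT and 7.48 in KO ductal cells. It was 2.14-fold lower in KO than in WT cells, or -0.85 after quantile normalization and so under 2-fold, and at least 9.64-fold lower in beta than in WT cells, its beta level being below the floor. A further probe set, shared in the annotation by Ndufs5 and its pseudogene Ndufs5-ps, read 7.86 on all 3 arrays and did not show these differences. Ndufab1, the mitochondrial acyl carrier protein, read 4.80, 7.85 and 7.98 in beta, WT and KO cells, at least 5.84-fold lower in beta than in WT cells. Ndufb9, a membrane-arm subunit that binds an acyl carrier protein, read 6.29, 9.28 and 8.97, a 7.94-fold difference between beta and WT cells. Ndufb5, also of the membrane arm, read 4.64, 7.57 and 7.15, at least 4.81-fold lower in beta than in WT cells.

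At the other end, Ndufa12 (7.73), Ndufb2 (6.75) and Ndufv3 (7.74) read the same on all 3 arrays. Ndufa8 read 7.40 in beta and 7.58 in both ductal arrays. These near-ties held for the deposited values: with the trend removed, Ndufa12, Ndufv3 and Ndufa8 read higher in beta than in WT cells by 1.35, 1.35 and 1.04, and Ndufb2 by 0.67. In all, 25 of the 28 (89.3%) were lower in beta than in WT cells as deposited, beside 53.8% of all genes and 84.8% of the level range. After quantile normalization or removal of the trend 19 of the 28 were. Ndufa3, a small membrane-arm subunit, read 9.07 in WT and 8.38 in KO cells (-0.69), and Ndufb10, a subunit held by disulfide bonds, 8.15 and 7.46 (-0.68). Ndufb7 (8.24 and 7.70) and Ndufa2 (8.76 and 8.25) followed at -0.54 and -0.51. All 4 were also lower in KO cells under the other scalings, by -0.33 at the least. The highest differences were those of Ndufa11, with 9.01 in WT and 9.27 in KO cells (0.27), Ndufs6, with 8.32 and 8.58 (0.26), and Ndufb11, with 8.61 and 8.79 (0.18). Medians of the 28 were -0.01 between the ductal arrays and -1.67 between beta and WT cells, the latter -0.92 after quantile normalization and -0.63 with the trend removed.

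The assembly factors, which build complex I and are not part of it, were read as well. Ndufaf1 read 6.04 in beta and 6.08 in both ductal arrays, Ndufaf2 read 6.29 and Ndufaf3 6.51 throughout. Ndufaf4, which works with Ndufaf3, read 4.34 in beta, 5.39 in WT and 5.12 in KO cells, at least 1.06-fold lower in beta than in WT cells. Ndufaf5, which hydroxylates a core subunit, read 4.85 and 5.69, and Ndufaf7, a methyltransferase, 5.20 and 5.80 in beta and both ductal arrays. The median of the 6 that entered was -0.32 for beta minus WT cells, or -0.06 with the 3 beta levels below the floor raised to it, and 5 of the 6 were identical between the ductal arrays.

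Complex II, the succinate dehydrogenase of the citric acid cycle, is given in full. Sdha, the flavoprotein that oxidises succinate, read 6.14 in beta, 8.05 in WT and 8.24 in KO ductal cells. Sdhc and Sdhd anchor the enzyme in the membrane: Sdhc read 6.92, 8.94 and 9.09, and Sdhd 5.68, 7.41 and 7.41. Sdhb, the iron-sulfur subunit, read 6.78, 7.09 and 7.09. Sdha and Sdhc were thus 3.77-fold and 4.06-fold lower in beta than in WT cells and Sdhd 3.32-fold as deposited. With the trend removed, Sdhd was still past 2-fold, at -1.18, while Sdha, at -0.99, and Sdhc, at -0.60, were not. Sdhb differed by -0.31, which turned to 0.48 after quantile normalization and 0.50 with the trend removed. In the KO array, Sdha was higher by 0.19 and Sdhc by 0.15 than in the WT array, also under all 3 other scalings, while Sdhb and Sdhd were identical.

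Complex III holds the gene with the largest difference of all members as deposited. Uqcrh, the hinge protein that helps cytochrome c meet cytochrome c1, read 6.17 in beta, 10.18 in WT and 10.05 in KO ductal cells. It was 16.0-fold lower in beta than in WT cells and 14.7-fold lower than in KO cells, and the difference from WT cells was -3.37 after quantile normalization and -2.51 with the trend removed, where Ndufs5 as measured gave -3.76 and -3.39. Uqcrc2, a core protein, read 5.51 in beta and 8.12 in both ductal arrays, a 6.08-fold difference. Its partner Uqcrc1 read 6.20, 7.68 and 7.10 in beta, WT and KO cells, and at -0.58 was the lowest of complex III between the ductal arrays. Uqcrfs1, the Rieske iron-sulfur protein, read 6.55, 7.43 and 7.20. Uqcr11, a small membrane subunit, read 6.68, 8.67 and 8.94. Uqcrq, a small subunit next to cytochrome b, read 7.96, 8.66 and 9.22. It was thus 0.56 higher in KO than in WT cells, and its difference of -0.70 between beta and WT cells turned to 0.48 after quantile normalization and 0.82 with the trend removed. The complex median was -0.11 between the ductal arrays, with 5 of 8 lower as deposited and 4 of 8 after quantile normalization. Between beta and WT cells it was -1.47 (-0.71 after quantile normalization and -0.55 with the trend removed). There 8 of 8 were lower as deposited, beside 53.8% of all genes and 84.8% of the level range, and 6 of 8 with the trend removed.

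Several subunits of complex IV come in tissue isoforms. The common isoforms were above the floor in all 3 arrays, and several muscle or testis isoforms were below it. Cox4i1, the usual form of a regulatory subunit, read 7.37 in beta, 9.62 in WT and 9.71 in KO cells, while Cox4i2, known from lung, read 5.59, 4.89 and 4.89. Cox6a1, the common form, read 7.86, 10.83 and 10.69, 7.79-fold lower in beta than in WT cells. Cox6a2, its heart and skeletal muscle form, read 6.35, 5.34 and 5.23 and was the only member at least 2-fold higher in beta cells, by 2.01-fold over WT cells and at least 2.16-fold over KO cells. Its difference from WT cells was 1.34 after quantile normalization, 1.13 with the trend removed and 0.94, under 2-fold, after centring.

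Cox6b1, which links the monomers of the complex IV dimer, read 9.17 in beta, 11.02 in WT and 11.20 in KO cells. Its testis form Cox6b2 read 5.62, 7.31 and 7.90, and at 0.60 had the highest difference of all members between the ductal arrays as deposited. It stayed positive under the other scalings. Uqcrq was above it after quantile normalization (0.68 against 0.66) and with the trend removed (0.66 against 0.64). Cox7a1, the muscle form of its subunit, read 5.11 in beta and 4.85 in both ductal arrays. Cox7a2, the common form, read 8.63, 8.88 and 8.96, and Cox7a2l, which joins complexes III and IV into supercomplexes, 8.26, 8.97 and 9.13. Their differences from WT cells of -0.25 and -0.71 turned to 0.90 and 0.46 after quantile normalization. Cox7b read 8.22 in beta and 10.02 in both ductal arrays, and the testis form Cox7b2 3.49 and 3.31. Cox8a read 7.35, 8.68 and 8.81, the muscle form Cox8b 4.83 in beta and 4.65 in both ductal arrays, and the testis form Cox8c 4.25 and 3.50.

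Ndufa4 was first ascribed to complex I and is a subunit of complex IV. It read 7.03 in beta, 10.72 in WT and 10.31 in KO cells, 12.9-fold lower in beta than in WT cells and 9.70-fold lower than in KO cells. Its paralogue Ndufa4l2, known to be induced by hypoxia, read 4.78, 7.54 and 6.64. It was 1.87-fold lower in KO than in WT cells, the lowest of complex IV, and at least 4.73-fold lower in beta than in WT cells. Ndufa4 was lower in beta than in WT cells under all 4 scalings, with its smallest difference, -2.15, where the trend was removed. The medians of complex IV were -0.05 between the ductal arrays, where 0.05 and 0.04 were found after quantile normalization and with the trend removed, and -1.69 between beta and WT cells, which became -0.69 and -0.29.

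**Figure D5:**
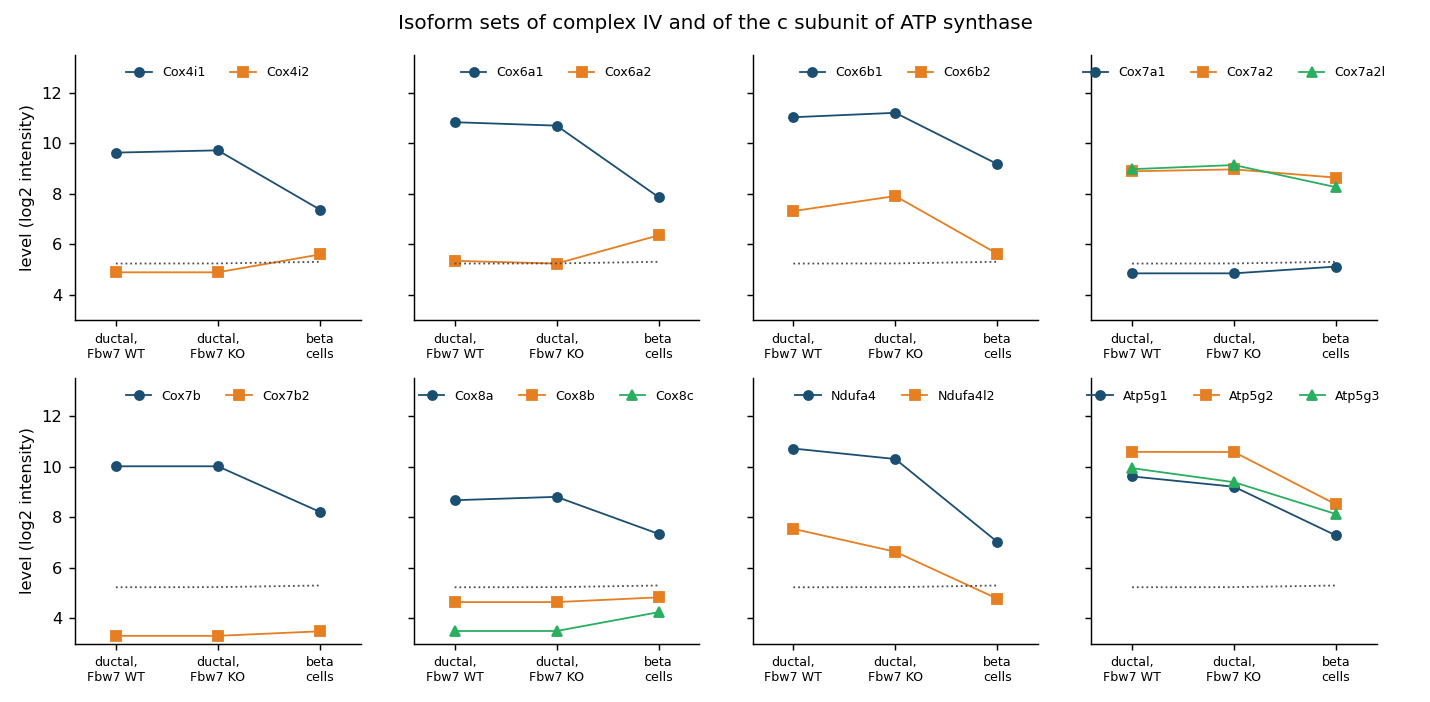
Level (log2 intensity, y axis) of the genes of 8 isoform sets in the WT ductal, KO ductal and beta arrays (x axis), with the floor as a dotted line; levels of different genes are not to be compared. The common forms drop towards the beta array, as Cox6a1 does from 10.83 to 7.86, while Cox6a2 and Cox4i2 read highest there. Cox7a1, Cox7b2, Cox8b and Cox8c also read highest in the beta array, but below the floor in every array.

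Complex V, the ATP synthase, read lower in beta than in WT ductal cells in 17 of 17 members as deposited. Of all genes 53.8% were lower, and of the level range 84.8%. That range ends at a mean level of 8.63, below the levels of Atp5l and Atp5mpl in every array. After quantile normalization 13 of the 17 were lower, and with the trend removed 11. The median was -1.89 as deposited, -0.77 after quantile normalization and -0.44 with the trend removed. The catalytic head subunits Atp5a1 and Atp5b read 7.25 and 7.32 in beta, 9.44 and 9.50 in WT, and 8.97 and 9.19 in KO cells. The rotor shaft gene Atp5c1 read 8.53, 9.39 and 8.91, and Atp5e, of the same rotor, 8.04, 10.34 and 10.38. Each of 3 genes encodes the same mature c subunit of the membrane ring. Atp5g1 read 7.28, 9.62 and 9.21 in beta, WT and KO cells, Atp5g2 8.51, 10.59 and 10.58, and Atp5g3 8.13, 9.94 and 9.39. Atp5g3 thus had the lowest difference of the complex between the ductal arrays, -0.55, while that of Atp5g2 was -0.00356.

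The stalk and membrane subunits differed among themselves in beta cells. Atp5o, which ties the head to the stalk and confers oligomycin sensitivity, read 6.35, 8.90 and 8.82 and was 5.88-fold lower in beta than in WT cells. Atp5j2, the f subunit, read 7.40, 9.99 and 9.80 and was 6.02-fold lower, the largest difference of the complex as deposited. Atp5k, the e subunit, read 8.76 in beta and 9.08 in both ductal arrays, the smallest as deposited at -0.33, which turned to 0.82 after quantile normalization and 1.22 with the trend removed. Of the 17, 12 were lower in KO than in WT ductal cells, 4 identical and 1, Atp5e, higher by 0.04. The median was -0.02, and after quantile normalization 7 were lower and 9 higher, so the split of signs followed the scaling.

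Probe sets of one gene were compared where there were several. As deposited, every probe set of all 17 such genes was lower in beta than in WT ductal cells. Of all genes 53.8% were lower, and of genes in the members' level range 84.8%. The median range among a gene's probe sets was 0.46 and the largest 1.82, for Ndufb11, a membrane-arm subunit. Under other scalings some of these genes turned sign, as Atp5l did (0.31 after quantile normalization and 0.75 with the trend removed). Others did not, as Ndufa11 (-1.52 and -1.05). Between the ductal arrays, Cox5b, Ndufb11 and Uqcr11 had probe sets of both signs, and the median range was 0.16.

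Other genes of the pathway were read from lists of related genes. Of the other chain proteins and assembly factors, 26 entered the ductal comparison with a median of 0.00. At least 2-fold lower in KO cells was 1 (3.85%, beside 1.81% of all genes). This was Uqcc2, an assembly factor of complex III, at 5.93 in beta, 8.18 in WT and 6.90 in KO cells (-1.28, and -1.02 after quantile normalization). In beta minus WT cells 7 of 27 (25.9%, beside 25.8% of all genes) were at least 2-fold lower and 0 higher (median -0.39 as deposited and 0.00 after quantile normalization). The electron carrier cytochrome c, Cycs, read 6.27, 7.81 and 7.26, and cytochrome c1, Cyc1, 5.60, 7.00 and 7.00. Between the ductal arrays 0 of 74 genes of the mitochondrial ribosome list were at least 2-fold apart, beside 1.81% of all genes lower and 1.43% higher. In beta minus WT cells 20 of 74 (27%, beside 25.8% of all genes) were at least 2-fold lower and 0 higher. These counts became 12 and 4 after quantile normalization and 10 and 7 with the trend removed. The median of this list was -0.39 as deposited, -0.03 after quantile normalization and -0.07 with the trend removed. As deposited, Mrpl51 had its lowest difference, with 4.99 in beta, 8.28 in WT and 8.63 in KO cells, and Mrps10 its highest, with 6.63, 5.76 and 6.17.

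The citric acid cycle and pyruvate dehydrogenase list had 9 of 14 at least 2-fold lower in beta than in WT cells and 0 higher. These were 64.3%, beside 25.8% of all genes and 57.3% of the level range. The median was -1.29 (-0.52 after quantile normalization and -0.45 with the trend removed). Citrate synthase, Cs, read 6.06, 8.54 and 8.05 in beta, WT and KO cells, and the malate dehydrogenase Mdh2 7.76, 10.20 and 10.07. The glycolysis list, of enzymes that supply pyruvate, had 8 of 14 at least 2-fold lower (57.1%, beside 25.8% of all genes and 57.3% of the level range) and 0 higher. Its median was -1.34 (-0.85 and -0.89). Between KO and WT ductal cells its median was -0.36. As deposited 11 of 14 (78.6%) were lower, beside 35.4% of all genes and 54.5% of the level range, and 12 were under each other scaling. The list held 2 genes at least 2-fold lower in KO than in WT ductal cells (14.3%, beside 1.81% of all genes and 2.97% of the level range). They were Ldhb, a lactate dehydrogenase subunit (5.60, 8.43 and 7.00), and Pgk1, phosphoglycerate kinase (6.15, 8.72 and 7.68). Ldhb was also past 2-fold after quantile normalization (-1.15) and Pgk1 was not (-0.81). The lactate transporter gene Slc16a1 read 4.49 in beta, 8.03 in WT and 8.06 in KO cells, at least 6.60-fold lower in beta than in WT cells.

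Of 13 regulators of mitochondrial genes, 7 entered the comparison of beta with WT ductal cells. Gabpa, a subunit of the factor whose letters were searched above, read 5.54, 7.32 and 7.08 and was 3.44-fold lower in beta than in WT cells. The coactivator gene Pprc1 (5.52, 6.69 and 6.69) was at least 2-fold lower as deposited as well. The mitochondrial transcription factor gene Tfb2m (5.06, 6.26 and 6.26) was at least 1.95-fold lower, its beta level being below the floor. The receptor gene Esrrg (5.90, 4.86 and 4.90) and the coactivator gene Ppargc1b (5.55, 4.52 and 4.52) were higher in beta cells, by at least 1.59-fold and 1.24-fold over the ductal floor. Ppargc1a, a coactivator central to mitochondrial biogenesis (4.20, 3.71 and 3.74), and Nrf1 (4.81, 5.12 and 5.12) were below the floor in every array. Between the ductal arrays 5 regulators entered, with Gabpa lower by -0.24 and the other 4 identical.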

How the data were processed

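RNA of 3 pools of sorted cells was measured on 1 array each. The authors deposited log2 intensities of probe sets, for which the submitters' processing notes name RMA, a method of background correction, normalization and probe summary. The version of RMA, and whether all 3 arrays went through it at once, are not given in the sources that were used here. All 89 symbols matched RefSeq GRCm38.p6 by gene ID, and 1621 probe sets with several genes were not used. RefSeq also lists 16 pseudogenes named after members.

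Differences of log2 values, medians and counts at 2-fold were computed for the 3 pairs of arrays over all genes. Levels under a floor gave folds against that floor. Alternatives were quantile normalization, centring, a loess trend (span 0.3), no floor or the 75th percentile, raised levels, averaged probe sets, subunits without assembly factors, and 1.5-fold. Members with 1 probe set, members without ties and 2-fold under all 4 scalings were added after seeing the data. Members and lists were chosen with earlier results of these data known. Named genes are members at least 2-fold apart between the ductal arrays, extremes of each comparison, complex and related list, the isoform sets and complex II; a few others were named for their role. The steps were tested on simulated data. Tools were numpy 2.4.6 and pandas 2.3.3 in Python 3.11.15, statsmodels 0.14.6 for loess, and matplotlib 3.10.9.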

Additional observations from a re-analysis of the deposited data

How the results depend on the processing

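No paired analysis was possible because each group holds 1 array and no test was made. Of the alternative values, 73 stayed within 0.1 of the median or 1.5 times the count and 29 moved. No median of beta minus ductal cells over all members changed sign. Medians of some smaller lists did after quantile normalization. For complex I assembly factors in beta minus KO cells it went from -0.03 to 0.26. For the regulators in beta minus WT cells it went from -0.24 to 0.40. A change of sign could not be scored for counts, nor for KO minus WT ductal cells, where the median as deposited was 0.00. For KO minus WT ductal cells, the median was -0.13 without ties, beside -0.13 for all genes and -0.21 for the level range. Members at least 2-fold lower were 0 after quantile normalization, beside 0.915% of all genes. At 1.5-fold 4 were lower (Ndufs5, Ndufa4l2, Ndufa3 and Ndufb10) and 1 higher (Cox6b2), beside 7.25% and 2.81% of all genes. The background share lower was 2.97% in the level range. For beta minus WT cells, the median was -0.72 after quantile normalization, -0.49 with the loess trend removed, -1.67 with the higher floor and with subunits only, and -1.66 without ties. Members lower were 35 and 21 under the first 2 of these scalings, and members higher 3 and 6 (all genes 17.9% and 16% lower, 10.6% and 8.1% higher), with 0 higher after centring and 2 at 1.5-fold (all genes 14%); the background shares in the level range were 57.3% and 2.13%. For beta minus KO cells, the median was -0.65 after quantile normalization, -0.48 with the trend removed, and -1.43 with the higher floor, with subunits only and without ties. Members lower were 31 and 27 under those scalings (all genes 16.8% and 15.3%), members higher 3 with the trend removed (6.44%) and 2 at 1.5-fold (13%), and the background shares 52.6% and 2.09%. The causes were not tested. Of the 84 members in the comparison of beta with WT cells, 10 had a level below its floor, where a fold is a bound.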
